A study of Mus musculus with 2 samples.

Results

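The genes described here encode the iron uptake and iron regulatory proteins Tfrc, Steap3, Hfe, Aco1, Ireb2, Fbxl5, Ncoa4, Pcbp1 and Pcbp2. They were taken by name, and every probe set that the platform annotation gives to a single one of these genes was kept, the manufacturer's control probe sets included. This gave 22 probe sets of 45101 for 9 genes of 18193, 3 of them control probe sets of Tfrc. RNA of sorted liver macrophages from c-Maf knockout (KO) mouse fetuses (c-Maf-/-) was hybridised to 1 Affymetrix array, and that from wild-type (WT) fetuses (c-Maf+/+) to another. Both came from the C57BL/6J strain at E15.5 (day 15.5 of embryonic development), and both sorts took cells stained for Mac-1 (Itgam) and for the macrophage antigen encoded by Adgre1. The labels do not say how many embryos each RNA pooled, nor how much of Maf is deleted. The design text asked which genes were lower in macrophages without c-Maf, a basic leucine zipper transcription factor. With 1 array per genotype there is no replicate, so no test, standard error or p-value is given, and each difference describes these 2 arrays only.

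Most cells take up iron as transferrin bound to the transferrin receptor, the product of Tfrc, which is carried into endosomes where the iron is reduced and released. A pair of related proteins, iron regulatory protein 1 (Aco1) and iron regulatory protein 2 (Ireb2), bind stem-loops called iron responsive elements when iron is scarce; this stabilises Tfrc messenger RNA and blocks translation of ferritin. Fetal liver macrophages sit at the centre of erythroblastic islands, where they engulf expelled red cell nuclei and handle iron next to erythroblasts, which themselves take up much transferrin.

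The whole KO array was dimmer. Its median signal was 2.98, against 4.73 on the WT array, and the median log2 ratio of KO over WT was -0.93 over the 9238 genes that reached the floor on each array. The floor was the 50th percentile of all signals, 3.70 as deposited. Ratios are therefore given as level-adjusted log2 ratios of KO over WT, after quantile normalization that gives both arrays the same distribution (floor 3.75), beside the deposited signals. The median level-adjusted ratio was 0.0087 over the 13290 genes measured, meaning those that reached the floor on either array, but it ran from 0.17 in the dimmest to -0.19 in the brightest of 5 signal bins. Probe sets of the same gene differed with an SD of 0.72 log2 units (3946 bright probe sets of 1625 genes), which is no replicate error because all were read on the same arrays. Maf itself had a signal of 0.219 on the KO array and 47.6 on the WT array at its brightest probe set, at least 8.51-fold lower after level adjustment. Whether its probes lie in the deleted part is not known here.

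All 9 genes were above the floor on both arrays at the probe set that represents them, the one with the highest mean signal. Each had a lower deposited signal on the KO array, as did 88.2% of those 9238 genes. Relative to the level of the arrays, Pcbp2, Tfrc, Ncoa4 and Pcbp1 stood highest, with level-adjusted log2 ratios of 0.79 to 1.06, and the iron regulatory protein genes Aco1 and Ireb2 lowest, at -0.37 and -0.17. Hfe (0.48), Steap3 (0.11) and Fbxl5 (0.02) lay between. After level adjustment 1 of the 9 genes, Pcbp2, was at least 2-fold higher in KO, where 8.34% of all measured genes were, and 0 were at least 2-fold lower, where 9.05% were. As deposited, 2 were at least 2-fold lower (Aco1 and Ireb2), against 39.8% of all 13479 genes measured on that scale, and 0 at least 2-fold higher, against 1.19%. The median level-adjusted ratio of the 9 genes was 0.48, beside 0.0087 over all measured genes, and their median deposited ratio was -0.51, beside -0.79.

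These signs are relative to the level chosen. As deposited, and with the hybridisation controls (transcripts spiked into each sample) as reference, the ratios of all 9 genes were below 0; with equal array medians or ratios centred on the median gene, 6 were above 0 and 3 below, since Fbxl5 joined Aco1 and Ireb2. The order of the 9 genes, from Pcbp2 at the top to Aco1 at the bottom, was the same as deposited and after quantile normalization. The other scalings shift all 9 log2 ratios by the same amount and cannot change it. The choice of probe set did change the order. With means over probe sets Ncoa4 stood highest (0.92) and Pcbp2 was at 0.48. Without suffixed probe sets Tfrc stood highest (0.87), Pcbp2 was at -0.088, and Ireb2 (-0.17) was below Aco1 (-0.10).

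**Figure D1:**
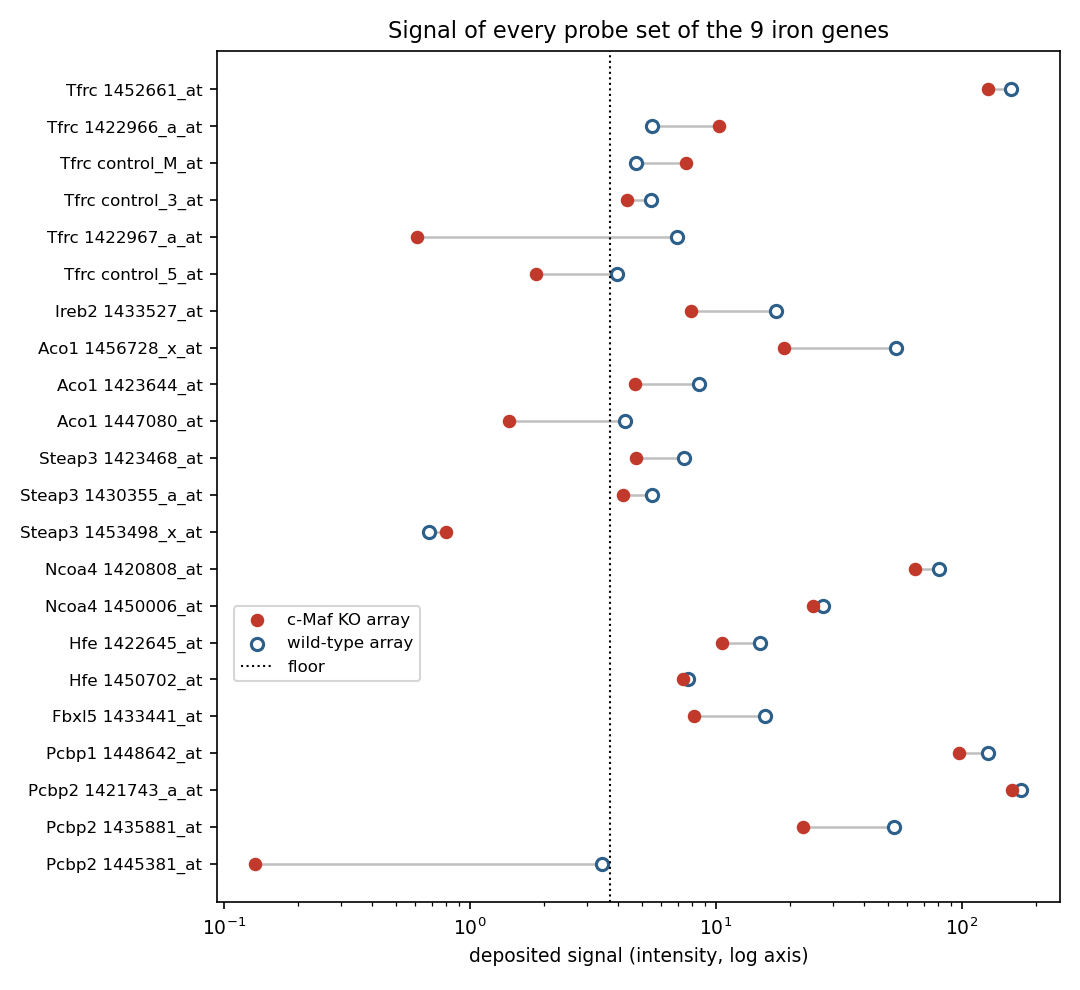
Deposited signal (log axis) of each of the 22 probe sets on the KO array (filled) and the WT array (open), with a grey line joining them and the floor of 3.70 dotted. On 19 of the 22 the KO point lies to the left of the WT point, and the brightest probe sets of Tfrc, Ncoa4, Pcbp1 and Pcbp2 lie close together on both arrays.

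Tfrc, the receptor that brings transferrin-bound iron into the cell, was read by 6 probe sets. The brightest, 1452661_at, had a signal of 128 on the KO array and 158 on the WT array. The arrays were thus closer for this probe set than for the median gene. The deposited log2 ratio was -0.31 and the level-adjusted one 0.87, a 1.83-fold higher level in KO that stays short of 2-fold. This ratio was above that of 88.4% of all measured genes and 93.0% of the 1891 genes in the brightest signal bin.

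The dimmer Tfrc probe sets did not point one way. Probe set 1422966_a_at had 10.3 on the KO array and 5.49 on the WT array, a level-adjusted ratio of 1.76 and a higher signal in KO even as deposited. Probe set 1422967_a_at, which the annotation ties to the same source sequence, had 0.609 on the KO array and 6.97 on the WT array, and it is below the floor in KO and at least 1.44-fold lower after level adjustment. Both carry the suffix that marks probes shared by several transcripts of a gene, and both are dim, so a few signal units separate these directions.

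The control probe sets read Tfrc near its 5′ end, in its middle and near its 3′ end, and all were near the floor. The middle one had 7.54 on the KO array and 4.76 on the WT array (level-adjusted 1.47), and the 3′ one had 4.34 on the KO array and 5.45 on the WT array (0.38). At the 5′ end the signals were 1.86 in KO and 3.96 in WT, and after level adjustment both were below the floor, so no ratio is given. Among the 5 Tfrc probe sets measured after level adjustment, 4 were therefore above 0 and 1 below.

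The controls of 2 abundant transcripts, which serve as a reading of RNA integrity, differed along their length between the arrays. Signal at the 3′ end over signal at the 5′ end came to 6.05 in KO and 13.3 in WT for Actb, which encodes beta-actin, and to 0.901 in KO and 1.83 in WT for the glycolytic enzyme gene Gapdh. For Actb the 3′ probe set had a lower signal in KO (3124, against 5625 in WT) while the 5′ one had a higher signal (516, against 424 in WT). A ratio can therefore depend on where in the transcript its probes lie, and the part of this in the ratios of the iron genes was not tested.

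**Figure D2:**
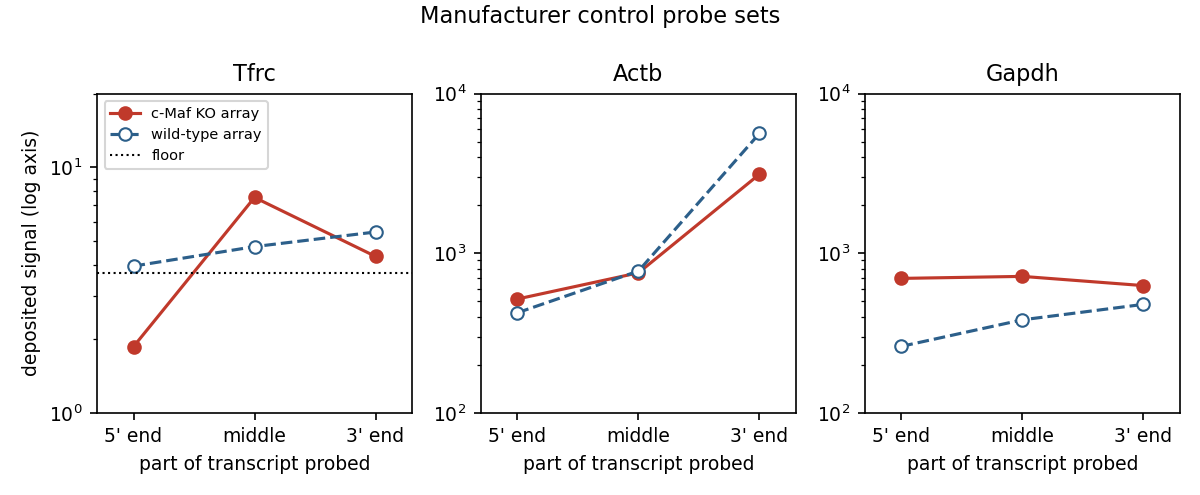
Deposited signals (log axes, scaled separately for Tfrc) of the manufacturer's control probe sets for the 5′ end, the middle and the 3′ end of Tfrc, Actb and Gapdh on the KO array (filled, solid line) and the WT array (open, dashed line). Tfrc runs near the floor of 3.70 with KO above WT only in the middle, whereas the Actb curve is flatter in KO than in WT, with a 3′ to 5′ ratio of 6.05 in KO and 13.3 in WT.

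Steap3 and Hfe act at the receptor. Steap3, the endosomal reductase that converts ferric to ferrous iron after transferrin uptake in erythroid cells, had 4.75 on the KO array and 7.43 on the WT array (level-adjusted 0.11). A second probe set had 4.19 in KO and 5.50 in WT (0.32), and the remaining one was below the floor on both arrays, at 0.804 in KO and 0.680 in WT. All of its signals were close to the floor, which limits how large a ratio could be seen. Hfe, a relative of MHC class I heavy chains that binds the transferrin receptor and is mutated in hereditary hemochromatosis, had 10.5 on the KO array and 15.0 on the WT array (0.48). Its other probe set, with 7.39 in KO and 7.73 in WT, had a ratio of 0.78. Both Hfe probe sets thus had a slightly lower deposited signal in KO and a positive level-adjusted ratio, and neither reached 2-fold.

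The iron regulatory protein genes had the lowest ratios of the 9. Aco1 encodes a protein that is a cytosolic aconitase when it holds an iron-sulfur cluster and an RNA-binding protein when it does not. Its brightest probe set, 1456728_x_at, had 18.9 on the KO array and 53.9 on the WT array, a deposited ratio of -1.51 and a level-adjusted one of -0.37. The suffix of this probe set marks probes that may also match other transcripts. The Aco1 probe set with no suffix above the floor on both arrays had 4.67 in KO and 8.54 in WT (level-adjusted -0.10), and the last had 1.45 in KO and 4.29 in WT, below the floor on both arrays once adjusted. Ireb2, whose protein is controlled by degradation, was read by 1 probe set with 7.93 on the KO array and 17.6 on the WT array (deposited -1.15, level-adjusted -0.17). Both genes were thus below 0 on either scale, but 30.3% of all measured genes lay below Aco1 and 40.4% below Ireb2. In size, their level-adjusted ratios were smaller than 0.72, the SD between bright probe sets of the same gene. That SD covers probe sets with an adjusted signal of at least 15.0 on either array. Ireb2, at 11.1 in KO and 12.5 in WT, was dimmer than this.

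Fbxl5, the iron-sensing F-box protein that marks iron regulatory protein 2 for destruction when iron is plentiful, had 8.16 on the KO array and 15.8 on the WT array. Its deposited ratio of -0.95 was close to that of the median gene, and its level-adjusted ratio was 0.02. It was read by 1 probe set.

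Ncoa4 is the cargo receptor that delivers ferritin to lysosomes, where its iron is released, and it was first described as a nuclear receptor coactivator. Its brighter probe set had 64.7 on the KO array and 80.6 on the WT array, and the other had 24.8 in KO and 27.3 in WT. The level-adjusted ratios were 0.87 and 0.98, the closest pair among the 6 genes with more than 1 probe set above the floor on both arrays, and both were just under 2-fold. Ncoa4 stood above 88.3% of all measured genes and 92.9% of those in the brightest bin.

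Pcbp1 and Pcbp2 encode poly(C)-binding proteins with KH domains, which bind messenger RNA and also deliver iron to ferritin and to iron enzymes as chaperones. Pcbp1 had 97.6 on the KO array and 128 on the WT array at its single probe set (level-adjusted 0.79). Pcbp2 had 161 on the KO array and 175 on the WT array at its brightest probe set, 1421743_a_at, for a level-adjusted ratio of 1.06, or 2.08-fold higher in KO. Its deposited log2 ratio, -0.12, was the closest to 0 of the 9 genes. A second Pcbp2 probe set did not show it, with 22.5 in KO and 53.0 in WT (deposited -1.24, level-adjusted -0.088), and the last was below the floor on both arrays, at 0.134 in KO and 3.45 in WT. The 2 measured Pcbp2 probe sets were 1.15 log2 units apart, and Pcbp2 was past 2-fold only by the brightest of them and, among the 5 scalings, only after quantile normalization. Pcbp1 and Pcbp2 are close paralogs, so probes of one may also bind transcripts of the other, which was not tested.

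**Figure D3:**
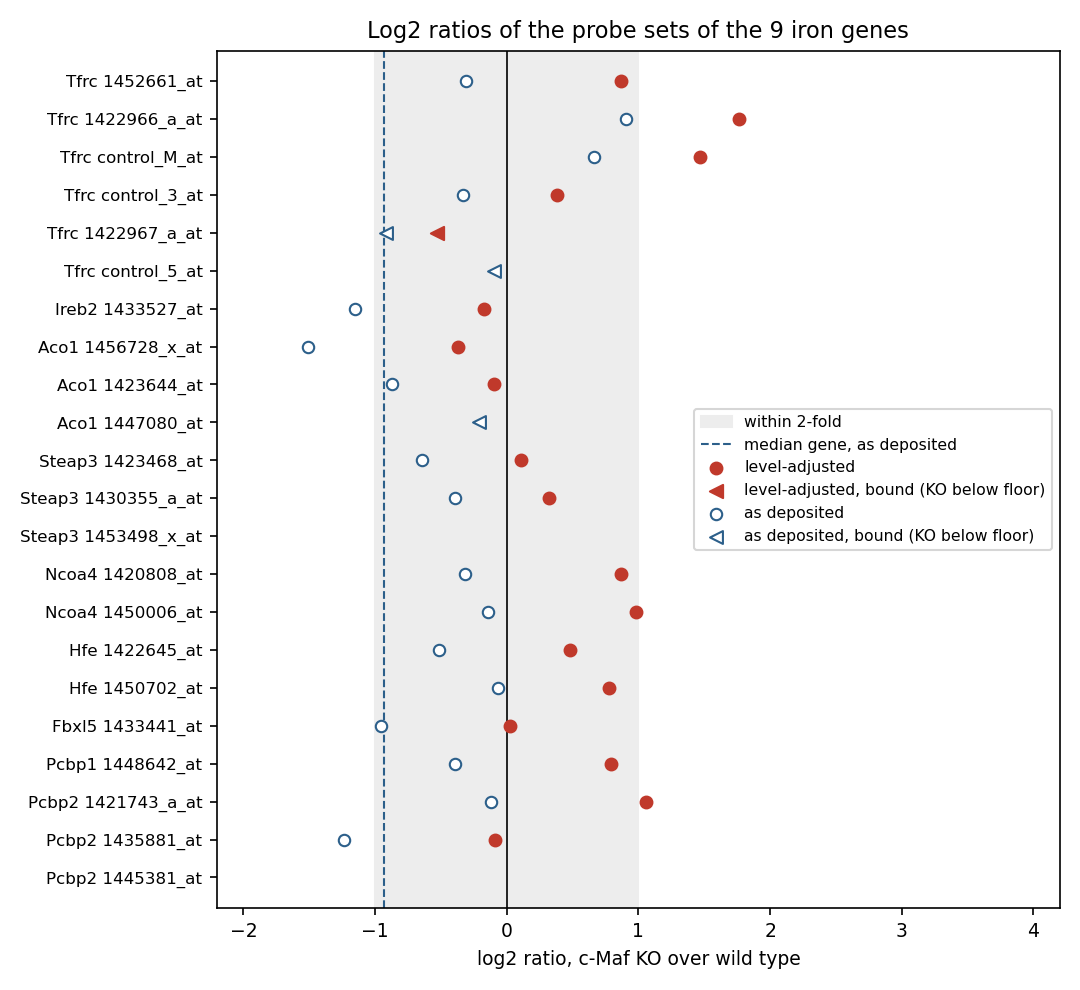
Log2 ratio of KO over WT for each probe set, level-adjusted (filled red) and as deposited (open blue), with triangles for bounds where KO was below the floor, no symbol where both arrays were, the 2-fold zone in grey and the median deposited ratio of -0.93 dashed. Both Ncoa4 and both Hfe probe sets lie to the right of 0 after level adjustment and both measured Aco1 probe sets to the left, while the probe sets of Tfrc and of Pcbp2 spread over both sides.

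Counted as probe sets, 3 of the 18 measured after level adjustment were at least 2-fold higher in KO, namely Pcbp2 1421743_a_at, Tfrc 1422966_a_at and the middle Tfrc control, where 8.5% of all 27814 measured probe sets were. None was at least 2-fold lower (0 of 18, against 9%). As deposited, 3 of 20 were at least 2-fold lower, 1 each of Aco1, Ireb2 and Pcbp2, against 35%, and 0 at least 2-fold higher, against 1.2%. The probe sets of a gene are not independent samples of a condition, since each pair of signals comes from the same 2 RNAs.

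Upstream sequence was searched for letters that Maf proteins are known to bind, since the KO removes one of them. Maf recognition elements combine a TGCTGA half-site with a core that can be TGACTCA, the site also bound by AP-1. The RefSeq table (GRCm38.p6) gave 15 windows of 250 bases upstream of annotated starts for 8 of the 9 genes. On either strand, TGCTGA was found in 4 windows of 3 genes, Hfe, Steap3 and Ncoa4, and in 16.1% of all 32851 windows. TGACTCA was found in 1 window, that of Hfe, and in 4.46% of all windows. Hfe is shown because both motifs overlap there, first letters 67 and 63 bases upstream of the start, and the Steap3 window because it holds the half-site once on each strand, 98 and 27 bases upstream; capitals mark the matches. Neither motif was found in the windows of Tfrc, Ireb2, Aco1, Pcbp1 or Pcbp2. Fbxl5 had no window and was not searched.
Hfe, chr13:23710855-23711104, minus strand: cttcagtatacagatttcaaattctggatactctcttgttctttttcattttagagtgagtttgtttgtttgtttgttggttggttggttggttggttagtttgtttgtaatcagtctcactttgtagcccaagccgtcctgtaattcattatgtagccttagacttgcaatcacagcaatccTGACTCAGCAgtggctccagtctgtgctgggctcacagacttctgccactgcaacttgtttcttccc
Steap3, chr1:120271081-120271330, minus strand: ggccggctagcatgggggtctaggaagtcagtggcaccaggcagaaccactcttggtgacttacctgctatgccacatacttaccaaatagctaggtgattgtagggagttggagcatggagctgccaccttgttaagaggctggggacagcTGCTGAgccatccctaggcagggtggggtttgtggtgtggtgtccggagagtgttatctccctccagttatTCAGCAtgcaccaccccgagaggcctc
The other 2 matches lie upstream of further annotated starts of Steap3 and Ncoa4 and are shown as 30 bases each.
Steap3, chr1:120265507-120265536, minus strand: tcTGCTGActgtgggcagatcaggaagtga
Ncoa4, chr14:32165590-32165619, plus strand: ttagtgacttgcTGCTGAgacctcttgacc
The genes with a match had level-adjusted ratios of 0.48 (Hfe), 0.11 (Steap3) and 0.87 (Ncoa4). Those searched without a match ran from -0.37 (Aco1) to 1.06 (Pcbp2), so the ranges overlap. A match is a description of the letters only.

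Genes that work with these 9 were read from lists, and higher and lower refer to level-adjusted ratios. As deposited, 19 of the 20 genes at least 2-fold higher in these lists and the marker lists also had a ratio above 0, the exception being Rhag. With the hybridisation controls as reference, 7 of the 20 (Snx3, Vps35, B2m, Hscb, Fcgr1, Rhag and Dlk1) were at or below 0. The 10 genes at least 2-fold lower were below 0 under each of the 5 scalings. Among 19 measured genes of iron transport and storage, 13 were above the floor on both arrays. Of the 19, 16 were within 2-fold, but 5 of these had only a bound, which limits the counts and the median. The median level-adjusted ratio was 0.34, and 2 genes were at least 2-fold higher in KO and 1 lower. The higher ones were Fth1, the ferritin heavy chain (625 in KO, 333 in WT, ratio 1.90), and Slc11a1, the phagosomal metal transporter (19.9 in KO, 11.5 in WT, 1.80). The lower one was Slc11a2, the transporter that moves endosomal iron to the cytosol, with 1.11 in KO and 12.1 in WT, at least 2.38-fold lower. The 2 other measured Slc11a2 probe sets were also below 0, but neither reached 2-fold and 1 of them was close to 0. Mcoln1, a lysosomal cation channel that passes iron, was next in size at -0.76 (6.86 in KO, 22.8 in WT), although a second probe set was at 0.29.

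Of the 8 measured transcripts with iron responsive elements, which include Tfrc, 1 was at least 2-fold higher (Fth1) and 1 lower (Slc11a2), and the median was 0.57. Epas1, the hypoxia-inducible factor 2 alpha gene, had 9.19 in KO and 8.77 in WT (0.96, with a second probe set at 0.36). The elements of Tfrc and Slc11a2 both lie in the 3′ untranslated region. After level adjustment Tfrc was above 0 and Slc11a2 below it at their brightest probe sets, but as deposited both were below 0.

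Transferrin receptor trafficking genes had 2 of 12 measured members at least 2-fold higher and 2 lower, with a median of 0.42. Snx3, a sorting nexin that recycles the transferrin receptor, had 112 in KO and 99.7 in WT (1.35), and its retromer partner Vps35 had 69.0 in KO and 67.0 in WT (1.23, with a second probe set at 0.03). Rab5a, a GTPase of early endosomes, had 12.6 in KO and 57.4 in WT (-1.07). The adaptor subunit gene Ap2a2 had 0.785 in KO and 73.9 in WT, at least 13.1-fold lower, but 2 of its 4 other measured probe sets were above 0.

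The partners of the iron regulators had 1 of 7 measured members at least 2-fold higher and 0 lower, and a median of -0.18. The higher one was B2m, the light chain that pairs with Hfe (128 in KO, 110 in WT, 1.37; second probe set 1.36). Herc2, a ubiquitin ligase reported to turn over Ncoa4, was at 0.90, though 2 of its 3 other probe sets were below 0. Glrx3 (-0.75) and Bola2 (-0.40), which work together in cytosolic iron-sulfur handling, were below 0 and within 2-fold; 1 of 4 further Bola2 probe sets was above 0. Iron-sulfur cluster assembly genes, which make the cluster that Aco1 holds, had 1 of 14 higher, the co-chaperone gene Hscb (18.4 in KO, 15.6 in WT, 1.29), and 1 lower, Lyrm4, an accessory subunit of the cysteine desulfurase (3.80 in KO, 14.7 in WT, -1.13), with a median of 0.36. Ciapin1 (-0.96) and Ciao2b (0.88) were within 2-fold, and 2 other Ciapin1 probe sets were above 0. The other poly(C)-binding KH protein genes had 1 of 3 lower, Hnrnpk (566 in KO, 1928 in WT, -1.08), with Pcbp3 at 0.63 and Pcbp4 at 0.10, though the 2 other Pcbp4 probe sets were below 0. Of 3 further Hnrnpk probe sets 1 was above 0.

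**Figure D4:**
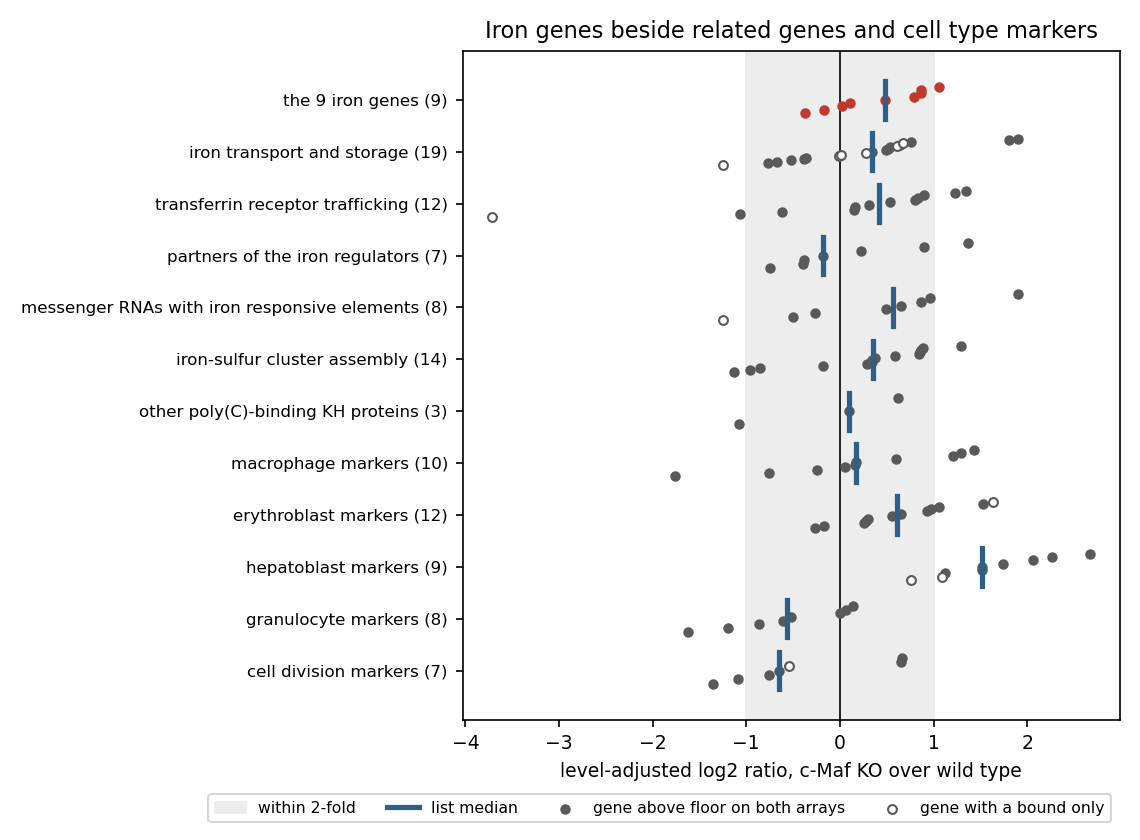
Level-adjusted log2 ratio of KO over WT for each measured gene of the 9 iron genes (red) and of the other lists (grey; open where 1 array was below the floor), with the list median as a blue bar, the 2-fold zone in grey and the number of measured genes in brackets. The 9 iron genes span -0.37 to 1.06 around a median of 0.48, and the hepatoblast markers, with a median of 1.52, lie farthest to the right.

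Markers of cells that the sorts could hold are given beside these values. The macrophage markers had 3 of 10 measured members at least 2-fold higher and 1 lower after level adjustment (median 0.17). Past 2-fold were Cd68 (1.43), Siglec1 (1.29), Fcgr1 (1.21) and Vcam1 (-1.76), and Cd163 was below the floor on both arrays. Of the sort markers, Adgre1 was at 0.60 and Itgam at 0.16, the latter near the floor (3.94 in KO, 5.76 in WT). Lyz2 (0.18) and Timd4 (0.059) were above 0, and Mertk (-0.76) and Csf1r (-0.24; 248 in KO, 625 in WT) below. Their summed deposited signal was 710 in KO and 1429 in WT, but after level adjustment the KO sum was 1.04 times the WT sum. The sums given below are also as deposited. After level adjustment, KO sums over WT sums were 1.14 for the erythroblast, 3.40 for the hepatoblast, 0.86 for the granulocyte and 0.57 for the cell division markers. Erythroblast markers, of cells that express Tfrc and Steap3 strongly, were at least 2-fold higher for 3 of 12 genes and lower for 0 (median 0.61), with a summed signal of 753 in KO and 1330 in WT. The erythroid genes Klf1 (1.53), Rhag (1.06) and Kel (0.98) were above 0, and Tspo2 was below the floor in WT and at least 3.10-fold higher in KO. Alas2 (-0.26) and Slc4a1 (-0.17, with another measured probe set at 0.38) were below 0. Hepatoblast markers had 8 of 9 measured members at least 2-fold higher and 0 lower, with Apoa1 (2.67), Alb (2.27), Ttr (2.06) and Apoa2 (1.74) leading and a summed signal of 566 in KO and 364 in WT; Apob and Fgb were below the floor on both arrays.

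Granulocyte markers had 2 of 8 lower and 0 higher (median -0.56), with a summed signal of 8567 in KO and 14810 in WT. Camp (-1.62), Mpo (-1.19), Ltf (-0.86), Prtn3 (-0.61) and Ngp (-0.52) were below 0. Elane (0.14) and S100a9 (0.068) were above 0, and S100a8 was at 0. The brightest of the list were S100a9 (3812 in KO, 4926 in WT) and S100a8 (3317 in KO, 4717 in WT). Cell division markers had 2 of 7 lower and 0 higher (median -0.65; Mcm5 at -1.36, Rrm2 at -1.09, Mki67 at -0.75 and Cdk1 at 0.67), though 2 further probe sets of Rrm2 and 1 of Mcm5 were above 0; their summed signal was 927 in KO and 3320 in WT. The part of other cell types in the ratios of the 9 iron genes was not tested, and in such sorted bulk RNA fewer cells of a type and less RNA per cell cannot be told apart.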

How the data were processed

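The deposited table holds a linear intensity for each of 45101 probe sets on each array, from 0.0203 to 10606; the labels do not say how the authors summarised or scaled them, and both columns were used. Of the 45037 probe sets that are no controls, 34945 had 1 gene symbol, 932 several and 9160 none in the platform annotation used here. For 34741 the symbol was looked up through the Entrez identifier (GRCm38.p6), whether or not it changed. None was taken from a probe set with several. Intensities were quantile normalized on the log2 scale over both arrays, floored at the 50th percentile of the pooled values, and then turned into log2 ratios of KO over WT (Python 3.11.15, pandas 2.3.3, numpy 2.4.6). Each gene is represented by the non-control probe set that was brightest on average as deposited; a value below the floor on 1 array gives a bound. The floor takes the place of a detection limit, and the number of arrays limits the precision. The steps were tested on simulated arrays in which equal numbers of probe sets were raised and lowered. That balance suits quantile normalization, so the simulation cannot show whether this scaling suits the real arrays. Named genes are the 9 iron genes, Maf, and up to 4 genes of each of the other 11 lists with the largest absolute level-adjusted ratio. Some further list genes are named for being below the floor, for the sign of their ratio or to complete a marker list. The members, lists and scaling were chosen with earlier results of these data known, the motifs after the ratios were seen. Alternatives were 4 other scalings, floors at the 25th and 65th percentile, a pseudocount, other choices of probe set, and thresholds of 1.5-, 3- and 4-fold.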

Additional observations from a re-analysis of the deposited data

How the results depend on the processing

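The main values for the 9 iron genes were 0 at least 2-fold lower, 1 higher and a median of 0.48, with 0 probe sets lower and 3 higher, and 1203 genes lower and 1109 higher over the array. As deposited, 2 iron genes were lower and 0 higher (median -0.51), with 3 probe sets lower and 0 higher, and 5358 genes lower and 161 higher; with hybridisation controls as reference, 3 and 0 (median -0.75), with 6 and 0 probe sets, and 6727 and 104 genes. Equal medians left 0 iron genes higher (2167 genes lower, 630 higher), as did centred ratios (1869 genes higher), means over probe sets (686 genes lower) and probe sets without a suffix, of which 1 was higher. Pcbp2 was at -0.12 as deposited, -0.36 against the hybridisation controls and -0.088 without suffixed probe sets; by construction, the first 2 keep the dimmer level of the KO array and the last takes another probe set. The share of lower among all genes past 2-fold was 52.0% after quantile normalization, 97.1% as deposited, 77.5% with equal medians, 37.2% with centred ratios and 98.5% with the hybridisation controls. The 25th percentile floor gave 2 probe sets of the iron genes lower, 2969 genes lower and 2967 higher; the 65th gave 796 genes lower and 615 higher, and the pseudocount 1 probe set lower. At 1.5-fold, 4 iron genes and 8 of their probe sets were higher (2786 genes lower, 2818 higher), at 3-fold 0 and 1 (286 and 211), and at 4-fold 0 and 0 (92 and 63). Of 90 ratios of the iron genes under 10 alternatives, 53 were above 0 and 37 below; those of Aco1 and Ireb2 were below 0 in all 10. Signals near the floor limit Steap3, Ireb2, Fbxl5, Hfe and the dimmer Tfrc and Aco1 probe sets. No paired analysis was possible because each genotype has 1 array. Apart from the Pcbp2 probe sets and the scaling, the cause of these differences was not tested.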
